A study of Mus musculus with 34 samples.

Results

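The comparison described here set clone2 against clone1, a pair of mouse colon tumour organoid lines in which Degs1 had been knocked out, over 9 libraries of each, or 18 of the 34 libraries of the series. Members were taken from the sample titles, and all genes that passed a filter on low counts entered. Clone2 and clone1 both carried the Degs1 knockout, made with ribonucleoprotein CRISPR, on the genotype given as AKP, which the labels do not spell out. The 3 Scrambled control libraries had the AKP genotype without the knockout and served as an outside standard. Each clone was 1 line, the labels give no treatment, age or day beyond this, and they do not say whether replicates were separate cultures. The value n therefore counts libraries, p-values measure only the spread between them, which may be technical, and the effect of a clone cannot be told apart from that of the single line that carries it. The question was how far 2 lines with the same gene knocked out differ in cell state.

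Degs1 encodes the desaturase that completes ceramide synthesis, and ceramide is the precursor of sphingomyelin and glycosphingolipids. Colon epithelium is renewed from stem cells at the crypt base, whose progeny become absorptive colonocytes with a brush border or mucus-secreting goblet cells. The transcription factors HNF4A and CDX2 are known to sustain the absorptive programme, and Wnt signalling is known to sustain the stem cells. CRISPR lines grown from single cells can differ from each other in genes that have no tie to the edited one.

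Values are CPM, counts scaled to the effective library total. For each clone the 3 values given are the lowest, the median and the highest of 9 libraries, and for Scrambled they are its 3 libraries in rising order. Fold changes are log2 values of clone2 over clone1 with their standard error (SE), and p-values are Benjamini-Hochberg adjusted ones of the edgeR quasi-likelihood test over all genes, with a threshold of 0.05. Total counts ran from 3824998 to 6597099 in clone2, from 883253 to 5346951 in clone1 and from 4152399 to 6321118 in Scrambled, and clone1 replicate 2 was the shallowest by far. Every library of either clone lay nearest to another of its own clone. Pearson r of log2 CPM over genes, which are not independent replicates, had a median of 0.960 within clone2, 0.957 within clone1 and 0.903 between them. The median between clone2 and Scrambled was 0.906, and that between clone1 and Scrambled 0.940.

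The libraries fell into 2 kinds that cut across clone2. Rps16-ps2, a processed pseudogene of a ribosomal protein gene, had 4247 to 6483 counts in clone2 replicates 3 to 9 and 0 counts in clone2 replicates 1 and 2, in all clone1 libraries and in all Scrambled libraries. Gm10163, another processed pseudogene, had 1587 to 3777 counts in clone2 replicates 3 to 9 and 0 in clone2 replicates 1 and 2, clone1 and Scrambled. The shControl libraries, controls of another kind in the same series, split likewise, with 670.0 to 2820.0 counts of Rps16-ps2 in replicates 1 to 4 and 0 in replicates 5 to 10. In all, 7 pseudogenes had at least 5 counts in 9 or more of the 11 libraries that hold Rps16-ps2, and at most 2 counts summed over all other libraries. Between clone2 replicates 3 to 9 and 1 to 2, 379 genes differed. Of these, 164 differed with the same sign between shControl replicates 1 to 4 and 5 to 10, and 17 with the opposite sign. Of those 164 genes 33 are pseudogenes, against 269 pseudogenes among the 11514 genes tested, and 147 of the 164 passed in clone2 against clone1. Why the libraries differ in this way was not tested. Clone2 replicates 1 and 2 are the only clone2 libraries of the same kind as clone1, so their values against clone1 stand beside the results, under the name of the matched pair (2 clone2 libraries against 9 of clone1). This split was found after the values were seen.

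The clones differed in 5649 of 11514 genes tested, 2717 higher and 2932 lower in clone2, so that 49.1% of genes were called in either direction, 23.6% higher and 25.5% lower. A change of at least 1 on the log2 scale was called for 1739 genes (15.1%), 938 higher and 801 lower, and a change of at least 2 for 539 genes (4.68%), 308 higher and 231 lower. In 1345 genes (11.7%) the 9 libraries of clone2 did not overlap the 9 of clone1. With the matched pair alone, 2129 of 11334 genes tested passed, 1247 higher and 882 lower. These smaller numbers, not the shares over all libraries, are what counts of list members stand against in the matched pair. Of the 5649 genes, 5474 could be tested there, 5210 had the same sign and 1949 passed with it, while 2 passed with the opposite sign. Of the 539 genes that changed by at least 2, the mean of the Scrambled libraries was nearer clone1 for 402 and nearer clone2 for 137, and it lay between both clones for 339.

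**Figure D1:**
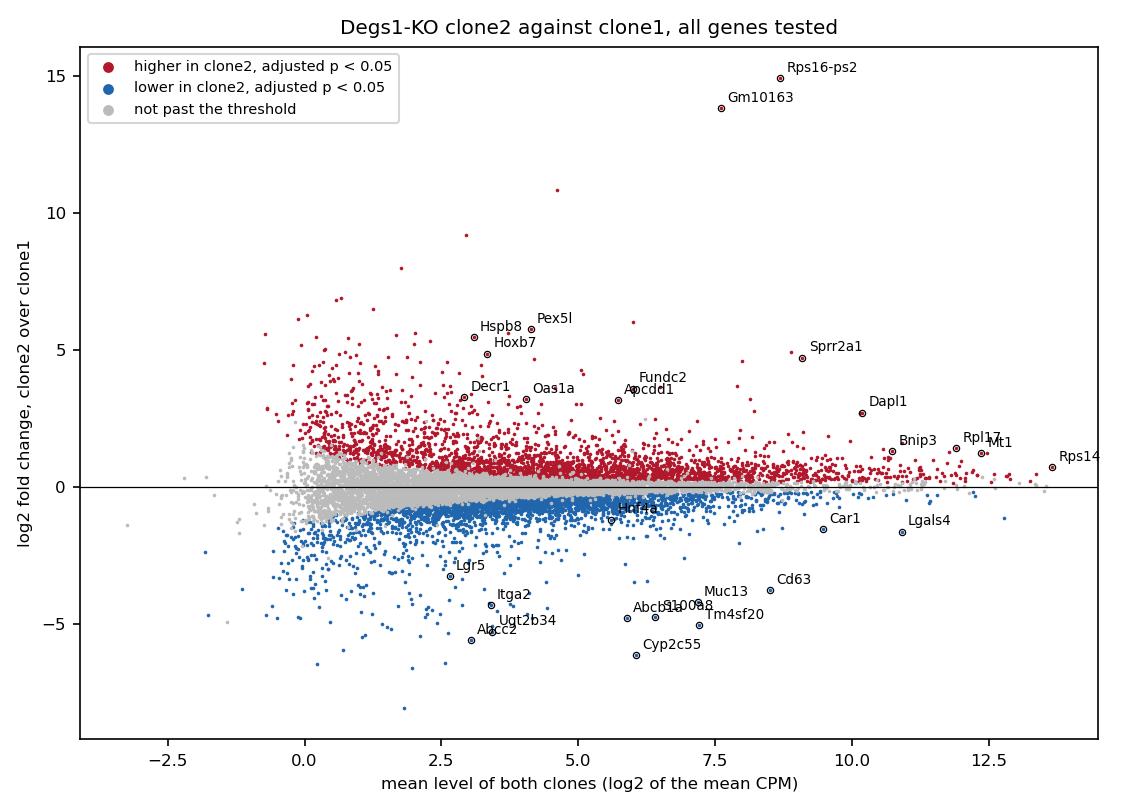
Each point is a gene tested, with the mean level of both clones in log2 CPM on the x axis and the log2 fold change of clone2 over clone1 on the y axis. Red and blue points are the 2717 higher and 2932 lower genes, and the points highest on the y axis, Rps16-ps2 and Gm10163, are pseudogenes with 0 counts in clone2 replicates 1 and 2 and in clone1.

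Degs1 itself had 0.214, 1.84 and 2.80 CPM in clone2 and 0.799, 3.05 and 4.51 CPM in clone1, and the Scrambled libraries had 4.96, 7.96 and 9.97 CPM. The clones overlapped, and their difference did not pass (-0.58 ± 0.37, adjusted p = 0.191, 95% confidence interval from -1.32 to 0.16). Both clones lay below every Scrambled library. Where the edit lies in the gene was not given in the sources used here, so the mRNA does not measure the protein. Of 42 sphingolipid genes tested, 5 were higher and 12 lower, with a median log2 fold change of -0.23 against -0.054 over all genes. Degs2, the paralog that also makes phytoceramide, had 182, 196 and 254 CPM in clone2 and 303, 389 and 417 CPM in clone1 (-0.86 ± 0.081, adjusted p = 2.58e-11), without overlap. Acer1, an alkaline ceramidase, was lower (-1.65 ± 0.22), as was the sphingomyelin synthase gene Sgms1 (-0.91 ± 0.14), while Ormdl1, an inhibitor of the first step of ceramide synthesis, was higher (1.05 ± 0.099). Over the matched pair Degs2, Acer1, Sgms1 and Ormdl1 stood at -0.56, -1.40, -0.92 and 1.14.

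Most tested genes of absorptive colonocytes were lower in clone2. Of 30 genes on that list 19 passed the filter, with 15 lower, 1 higher and 3 not past the threshold, at a median log2 fold change of -2.75. In 12 of the 19 all clone2 libraries lay below all clone1 libraries. The summed list differed by less, with 2204, 3228 and 3833 CPM in clone2 and 3771, 5525 and 6147 CPM in clone1. Scrambled had 3469, 3491 and 3510 CPM. For this sum the clones overlapped, and the range of clone2 held that of Scrambled. Muc13 (ENSMUSG00000022824, chromosome 16, 33794037 to 33819934, mm10), a transmembrane mucin of the apical surface, had 5.47, 12.6 and 29.3 CPM in clone2 and 180.0, 314 and 341 CPM in clone1. Its difference was -4.20 ± 0.28 (adjusted p = 3.86e-10), and the Scrambled libraries, with 83.2, 88.5 and 91.2 CPM, lay between the clones. Lypd8, a secreted inhibitor of bacterial motility in the colon, had 1.34, 3.20 and 5.52 CPM in clone2 and 15.8, 40.6 and 63.7 CPM in clone1 (-3.47 ± 0.28, adjusted p = 1.2e-09). Cdhr2, a protocadherin that links neighbouring microvilli, had 2.88, 6.24 and 9.67 CPM in clone2 and 30.5, 58.6 and 79.2 CPM in clone1 (-3.21 ± 0.21, adjusted p = 1.78e-12). Scrambled had 26.3, 36.7 and 43.2 CPM of Lypd8 and 28.5, 30.9 and 31.4 CPM of Cdhr2, so that clone1 overlapped Scrambled for both and clone2 lay below either.

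Other brush border genes moved with them. Cdhr5, the partner of Cdhr2 (-3.16 ± 0.43), Myo1a, the brush border myosin (-2.75 ± 0.35), and the keratin of differentiated cells Krt20 (-3.73 ± 0.31) fell in clone2. Car1, a carbonic anhydrase of the colon surface, had 147, 369 and 535 CPM in clone2 and 543, 1273 and 1404 CPM in clone1, and all 9 clone2 libraries lay below clone1 but above the 126, 137 and 143 CPM of Scrambled. In the matched pair 13 of 19 genes were lower and 0 higher, at a median of -1.90, and Muc13, Lypd8, Cdhr2, Krt20 and Car1 stood at -3.22, -2.82, -2.58, -4.17 and -0.98, where Car1 no longer passed (adjusted p = 0.118). In bulk RNA, fewer cells of a type and less RNA per cell cannot be told apart.

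Transcription factors of this programme were lower as well. Hnf4a (ENSMUSG00000017950, chromosome 2, 163506808 to 163572910, mm10) had 19.0, 30.0 and 41.1 CPM in clone2 and 49.8, 65.3 and 86.7 CPM in clone1, against 49.4, 51.6 and 58.2 CPM in Scrambled, and the clones did not overlap (-1.19 ± 0.14, adjusted p = 7.68e-09; matched pair -1.09). Hnf4g, its paralog in the gut, chosen after its values were seen, had 0 counts in all 9 clone2 libraries and 25 counts over 7 clone1 libraries, at least 11.6-fold higher in clone1 against a floor of 3 counts over clone2. Both clones lay below Scrambled, which had 3.64, 3.72 and 7.78 CPM of Hnf4g, against at most 1.64 CPM in clone1. Cdx2 had 0.377, 3.04 and 5.35 CPM in clone2 and 2.22, 9.79 and 13.1 CPM in clone1 (-1.55 ± 0.31, adjusted p = 0.000116), with overlap, and in the matched pair it stood at -1.06 and did not pass (adjusted p = 0.12).

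Promoters of 3 absorptive genes that hold the letters CAAAGTC or GACTTTG, core letters of sites of HNF4 factors, are printed because Hnf4a and these genes were lower together. They are RefSeq sequences of GRCm38.p6, from 250 bases before to 50 after the gene's start, on the plus strand, with the HNF4 letters in capitals. They lie at chr16:33794239-33794538, chr13:54701213-54701512 and chr11:76901909-76902208.
Muc13: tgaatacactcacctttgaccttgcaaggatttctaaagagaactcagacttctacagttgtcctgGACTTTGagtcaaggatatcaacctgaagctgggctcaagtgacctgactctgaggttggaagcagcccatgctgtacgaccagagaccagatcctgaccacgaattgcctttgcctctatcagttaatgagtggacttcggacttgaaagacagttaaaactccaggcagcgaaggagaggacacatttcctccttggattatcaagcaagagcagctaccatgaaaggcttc
Cdhr2: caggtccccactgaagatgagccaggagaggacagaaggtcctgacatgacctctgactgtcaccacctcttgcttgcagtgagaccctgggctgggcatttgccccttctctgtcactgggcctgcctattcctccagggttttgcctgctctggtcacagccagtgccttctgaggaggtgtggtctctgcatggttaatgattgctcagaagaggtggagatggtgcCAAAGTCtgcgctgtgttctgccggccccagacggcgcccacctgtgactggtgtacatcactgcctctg
Tmigd1: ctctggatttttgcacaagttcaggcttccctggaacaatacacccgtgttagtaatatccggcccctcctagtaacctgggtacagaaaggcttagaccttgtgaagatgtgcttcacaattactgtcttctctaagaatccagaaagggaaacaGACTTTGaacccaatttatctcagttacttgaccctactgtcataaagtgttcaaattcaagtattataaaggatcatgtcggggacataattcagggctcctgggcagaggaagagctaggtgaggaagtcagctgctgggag
The table holds 2 windows each for Muc13 and Tmigd1 and 1 for Cdhr2, and those with the letters are shown. The Muc13 window is that of a second transcript start, and all of it lies downstream of the gene's start in the annotation given above. Counted from the start of its own window, the HNF4 letters begin at -184 for Muc13, at -20 for Cdhr2 and at -94 for Tmigd1. Tmigd1, an adhesion protein of intestinal epithelium, chosen after its values were seen, had 0, 0 and 0.226 CPM in clone2 and 0, 2.11 and 3.08 CPM in clone1, with 0 counts in 7 of the 9 clone2 libraries and in 1 of clone1, where the clones overlap. Of the 15 absorptive genes that were lower, 13 had a promoter in the table and these 3 held the HNF4 letters on either strand. Among all genes lower by at least 2, 151 of 231 had a promoter, and 18 of them (11.9%) held the HNF4 letters, against 5.95% of the 185 matched genes that were higher by at least 2 and 4.36% of the 8786 matched genes tested. Counted by promoter, since some genes have several, the order of the first 2 sets was reversed, with 10.1% of 178 promoters in the lower set, 12.1% of 264 in the higher set and 3.8% of 11275 tested. The letters CCATAAA or TTTATGG of CDX factors stood, by gene, in 3.97% of those lower by at least 2, in 4.32% of those higher and in 2.11% of those tested. The letters GGAATG or CATTCC of TEAD factors stood in 19.2%, 11.4% and 14%. Over all 27025 genes of the promoter table the shares were 5.0%, 3.21% and 16.6% for HNF4, CDX and TEAD letters. Base composition differed between these sets, with a mean GC content of 54.6% in the lower, 55.7% in the higher and 60.6% in the tested genes. Whether any of these letters is bound was not measured.

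**Figure D2:**
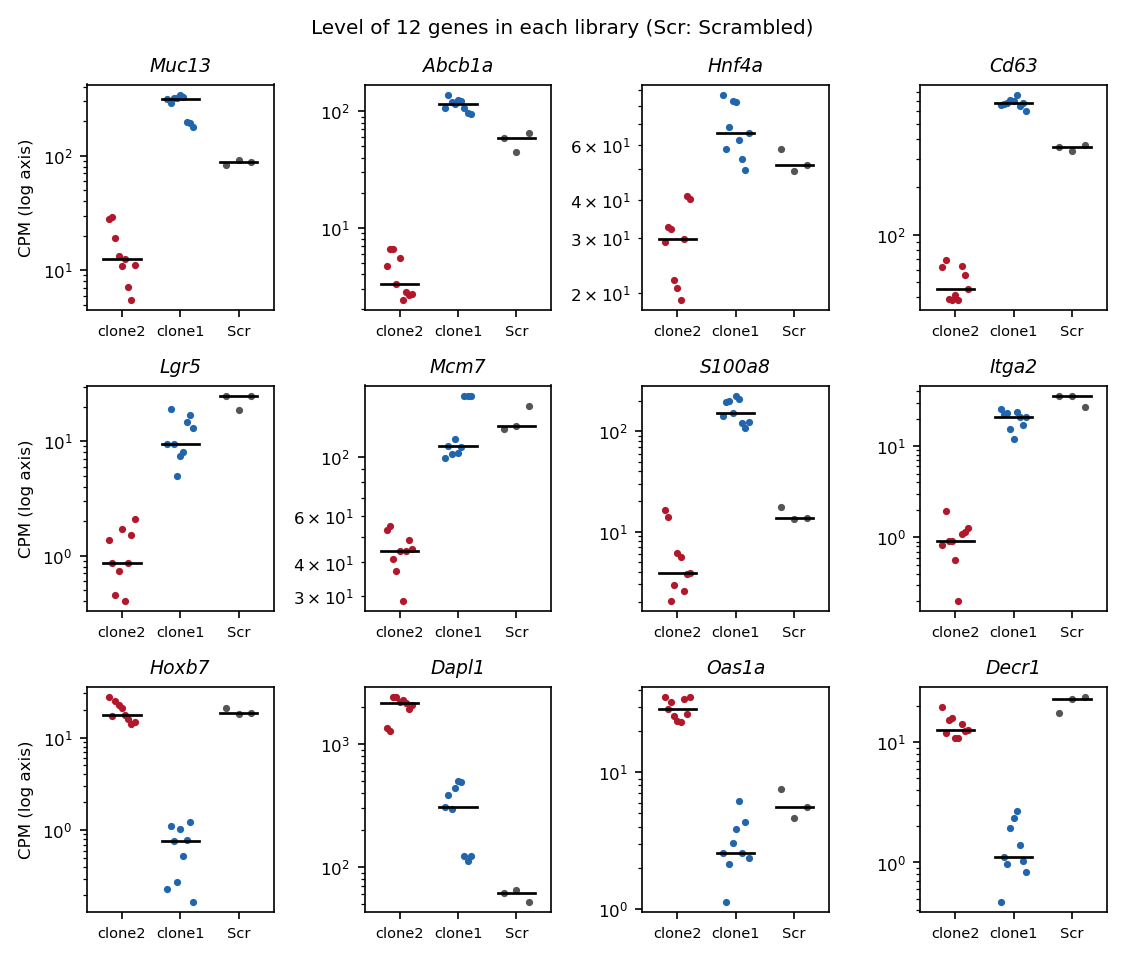
Each panel shows the CPM of 1 gene on a log axis, with 1 point per library and a line at the median, for clone2, clone1 and Scrambled. Muc13, Abcb1a, Hnf4a, Cd63, Lgr5, Mcm7, S100a8 and Itga2 are lower in clone2, and Hoxb7, Dapl1, Oas1a and Decr1 are higher, none with overlap between the clones.

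Genes that handle foreign compounds were lower in clone2 than in clone1, as the absorptive genes were. Of 42 genes of xenobiotic metabolism 17 were tested, 12 lower, 3 higher and 2 not past the threshold, with a median of -3.01, the lowest median of all lists in the comparison. The filter keeps a gene that is high enough in 1 group. Cyp2c65, Nr1i2 and Ugt1a7c, with at most 4, 6 and 2 counts in any clone2 library, entered through clone1 or Scrambled. Members that enter in this way can hardly be called higher, which limits the count and the median. The same holds for absorptive genes with few clone2 counts, such as Tmigd1. Nr1i2, the nuclear receptor PXR that senses drugs and bile acids, had 0, 0.189 and 1.66 CPM in clone2 and 3.35, 8.51 and 14.9 CPM in clone1 (-4.65 ± 0.38, adjusted p = 1.2e-12), without overlap. The cytochromes Cyp2c55 (-6.14 ± 0.43), Cyp2c65 (-5.18 ± 0.51) and Cyp3a13 (-3.01 ± 0.27) and the glucuronosyltransferases Ugt1a7c (-5.43 ± 0.37) and Ugt2b34 (-5.28 ± 0.33) were lower. Ugt1a7c had 0, 0.189 and 0.428 CPM in clone2 and 2.24, 9.10 and 12.9 CPM in clone1, and clone1 overlapped Scrambled at 8.19, 9.17 and 11 CPM. Scrambled also overlapped clone1 for Ugt2b34 and Nr1i2, but overlapped clone2 for Cyp2c65 and Cyp3a13. For Cyp2c55 it lay between the clones, at 8.52, 9.17 and 11.1 CPM. The summed list had 113, 125 and 151 CPM in clone2, 250, 394 and 517 CPM in clone1 and 153, 162 and 170 CPM in Scrambled. Ugt1a and Cyp2c genes share much sequence, so reads may be split among paralogs. Of the 3 higher genes the largest change was that of Cyp1b1, a target of the aryl hydrocarbon receptor chosen after its values were seen, with 2.08, 4.58 and 10.8 CPM in clone2 and 0, 0.266 and 1.78 CPM in clone1 (2.87 ± 0.42; matched pair 2.85). With the matched pair, 10 genes were lower and 1 higher, at a median of -1.70, and Cyp2c55, Ugt2b34 and Nr1i2 stood at -5.88, -4.78 and -3.35.

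The efflux pumps that could be tested showed the same direction. Of 14 drug efflux transporters 6 were tested, 5 lower and 0 higher, at a median of -1.02. Pumps too low to test did not all follow. Summed over the libraries of clone2 and clone1, Abcg1 had 47 and 0 counts, Abca1 39 and 0 and Abcg2 22 and 9. Abcg5 had 0 and 4, and Abcb11 3 and 4. Abcb1a (ENSMUSG00000040584, chromosome 5, 8660077 to 8748575, mm10), which encodes P-glycoprotein, had 2.40, 3.30 and 6.63 CPM in clone2 and 95.4, 116 and 139 CPM in clone1, against 44.5, 58.9 and 64.8 CPM in Scrambled, without overlap (-4.79 ± 0.16, adjusted p = 1.28e-23; matched pair -4.26). Abcc2, which exports glucuronides and glutathione conjugates, had 0, 0.189 and 1.38 CPM in clone2 and 6.35, 16 and 26.8 CPM in clone1 (-5.60 ± 0.38, adjusted p = 1.47e-14; matched pair -4.30), and Abcc3 was lower by less (-1.16 ± 0.16). Abcc5, a pump for cyclic nucleotides, did not pass (0.16 ± 0.17, adjusted p = 0.453).

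Genes of glutathione use changed in both directions. Of 27 NRF2 and glutathione genes 12 were lower and 6 higher, at a median of -0.25, and in the matched pair 9 were lower and 4 higher. The alpha-class transferase Gsta1 had 0.400, 1.12 and 2.80 CPM in clone2 and 8.95, 22.9 and 41.7 CPM in clone1 (-4.28 ± 0.26, adjusted p = 4.42e-15), and Gsta4 had 47.0, 58.3 and 74.2 CPM in clone2 and 173, 194 and 231 CPM in clone1 (-1.71 ± 0.087), neither with overlap. Lower too were the microsomal transferase Mgst2 (-2.33 ± 0.17) and Gclm, the modifier subunit of the enzyme that starts glutathione synthesis (-1.40 ± 0.17). The mu-class transferases Gstm1, with 139, 163 and 272 CPM in clone2 and 63.3, 91.7 and 108 CPM in clone1 (1.16 ± 0.14), and Gstm2 (1.21 ± 0.21) were higher. Gpx4, the peroxidase that protects membrane lipids, was higher over all libraries (1.22 ± 0.19) but is 1 of the 164 genes that differ between the kinds of library, and in the matched pair it stood at 0.19 (adjusted p = 0.461). With replicates 7 to 9 of both clones alone, the median of this list changed sign to 0.16. For the matched pair, Gsta1, Gsta4, Gstm1 and Gstm2 stood at -4.24, -1.75, 0.92 and 0.81.

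General epithelial genes were lower more often than higher. Of 29 epithelial identity genes 13 were lower and 5 higher, at a median of -0.27. Krt8, a keratin of simple epithelia, had 165, 234 and 261 CPM in clone2 and 547, 595 and 829 CPM in clone1 (-1.51 ± 0.091, adjusted p = 2.12e-16; matched pair -1.30), without overlap, while its partner Krt18 changed little (-0.27 ± 0.081). Epcam (-0.81 ± 0.091) and Cdh1, which encodes E-cadherin (-0.67 ± 0.089), both chosen after their values were seen, were lower without overlap. Isx, an intestinal homeobox factor, was higher (1.20 ± 0.22) and in both clones below the 24.3, 24.3 and 25.1 CPM of Scrambled. With replicates 7 to 9 alone the list's median was 0.01. Of 21 claudin and tight junction genes 12 were lower and 2 higher, at a median of -0.48. Cldn7 (-0.86 ± 0.086), Ocln (-0.87 ± 0.100) and Cgn (-0.95 ± 0.17) were among the lower, and Cldn8, a barrier claudin of the distal colon, was the largest rise, with 28.8, 33.97 and 37.0 CPM in clone2 and 6.09, 9.30 and 15.5 CPM in clone1 (1.89 ± 0.15, adjusted p = 2.15e-13; matched pair 1.87).

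Genes of adhesion to the basement membrane were lower more often than higher. Of 19 integrin and laminin genes 11 were lower and 4 higher, at a median of -0.32, and in the matched pair 5 were lower and 1 higher, at a median of -0.22. Itga2, the collagen receptor subunit, had 0.200, 0.918 and 1.92 CPM in clone2 and 12.1, 21.1 and 25.5 CPM in clone1, against 26.9, 35.0 and 35.6 CPM in Scrambled (-4.31 ± 0.22, adjusted p = 1.7e-18; matched pair -3.74). Itga6, the laminin receptor subunit of hemidesmosomes, had 43.8, 52.8 and 68.0 CPM in clone2 and 113, 149.6 and 212 CPM in clone1 (-1.51 ± 0.11; matched pair -1.14). Neither overlapped. Itga7 (-2.50 ± 0.29) and Dst, the plakin that anchors keratin to hemidesmosomes (-1.68 ± 0.22), were lower too. Of 9 mesenchymal genes tested 3 were higher and 5 lower. Twist1, a transcription factor of mesenchyme, had 1.12, 4.197 and 6.81 CPM in clone2 and 0, 0 and 1.12 CPM in clone1 (4.51 ± 0.62; matched pair 4.49) and 0 counts in all Scrambled libraries.

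**Figure D3:**
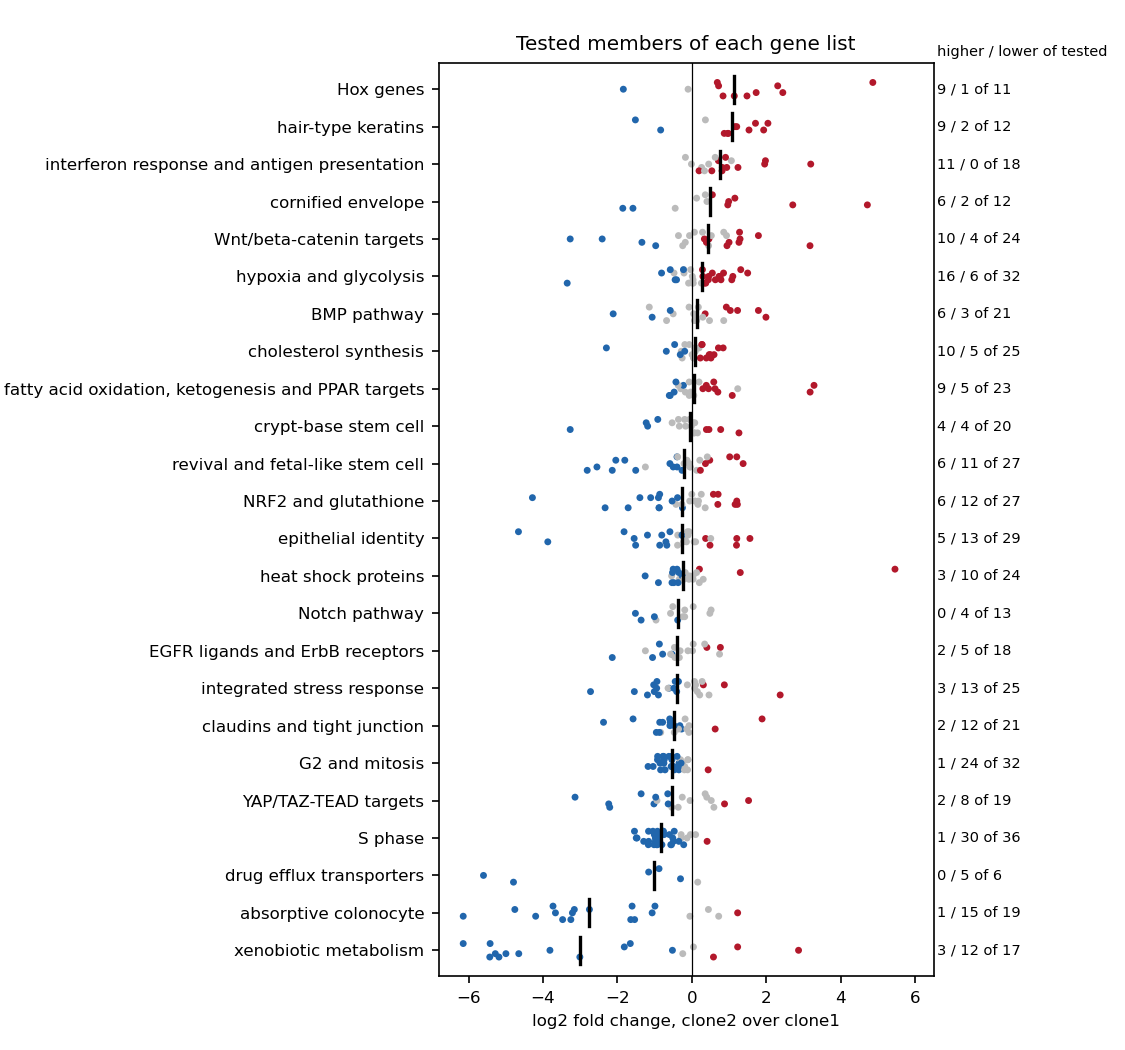
Each point is the log2 fold change of a tested gene, clone2 over clone1, in 1 of 24 lists, coloured red where it passed as higher, blue where it passed as lower and grey where it did not pass, with a black line at the list's median. The medians run from 1.14 for Hox genes to -3.01 for xenobiotic metabolism, and the counts of higher and lower genes stand at the right.

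Hox genes differed as well. Of 39 Hox genes, which record position along the body axis, 11 were tested and 9 were higher in clone2, with 1 lower, Hoxa5, and a median of 1.14. Hoxb7 (ENSMUSG00000038721, chromosome 11, 96286623 to 96290162, mm10) had 14.1, 17.4 and 27.6 CPM in clone2 and 0.167, 0.771 and 1.23 CPM in clone1, and clone2 overlapped Scrambled at 17.8, 18.3 and 20.7 CPM, so that clone1 was the line that stood apart (4.86 ± 0.25, adjusted p = 1.96e-18; matched pair 5.10). Hoxa10 had 42.5, 50.4 and 75.8 CPM in clone2 and 12.3, 18.1 and 24.7 CPM in clone1 (1.48 ± 0.13), and Hoxb13, the most distal gene of its cluster, had 209.6, 241 and 309 CPM in clone2 and 117, 152 and 170.0 CPM in clone1 (0.84 ± 0.091). Neither overlapped between the clones, and Scrambled had 29.3, 36.4 and 42.7 CPM of Hoxa10 and 102, 116 and 117 CPM of Hoxb13. In the matched pair 6 of 10 were higher and 0 lower, at a median of 1.18.

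Few secretory markers could be tested. Of 10 goblet cell genes 4 were lower, 2 higher and 4 not past the threshold, and of 7 Paneth and deep crypt secretory genes 4 were lower, 2 higher and 1 not past it. In the matched pair 4 goblet genes were lower and 0 higher, and 2 of the Paneth list were lower and 1 higher. Lyz1, the lysozyme of Paneth cells, had 0.184, 0.552 and 1.35 CPM in clone2 and 3.61, 5.74 and 7.46 CPM in clone1 (-3.09 ± 0.34; matched pair -3.42), and Reg4, a marker of deep crypt secretory cells, had 2.99, 6.61 and 15.7 CPM in clone2 and 15.7, 26.8 and 29.8 CPM in clone1 (-1.67 ± 0.28; matched pair -2.80). Sytl2 (-3.64 ± 0.42) and Rep15 (-1.13 ± 0.11), which serve vesicle traffic, were lower as well. Nupr1, a stress-induced chromatin protein on the Paneth list, was higher, with 3827, 4148 and 5517 CPM in clone2 and 2088, 2437 and 2766 CPM in clone1 (0.87 ± 0.075; matched pair 0.78). Of the rarer types, 2 enteroendocrine and 4 tuft cell genes could be tested, of which 1 was higher, Sct, which encodes the hormone secretin, and 1 lower, Il17rb, a receptor subunit. The summed level of the enteroendocrine list was 31.1 to 37.2 CPM in clone2 replicates 7 to 9 and 4.06 to 8.21 CPM in clone2 replicates 1 to 6, against 1.58 to 12.0 CPM in clone1, so that the rise lay in 3 clone2 libraries. No enteroendocrine gene was higher in the matched pair (0 of 2).

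Stem cell genes did not move as a group. Of 20 crypt-base stem cell genes 4 were higher and 4 lower, at a median of -0.038. Lgr5, the Wnt-dependent receptor of crypt-base stem cells, had 0.400, 0.863 and 2.08 CPM in clone2 and 5, 9.45 and 19.0 CPM in clone1, against 18.7, 24.8 and 24.9 CPM in Scrambled (-3.27 ± 0.28, adjusted p = 1.99e-12; matched pair -3.28). Slc12a2, an ion cotransporter of the crypt (-1.19 ± 0.10), Cdk6 (-1.23 ± 0.15) and Prom1 (-0.91 ± 0.089) were lower without overlap. Ascl2, the transcription factor of the same cells, had 46.7, 135 and 259 CPM in clone2 and 27.9, 49.1 and 108 CPM in clone1 (1.27 ± 0.32, adjusted p = 0.00284), but it stood at -0.079 in the matched pair and did not pass with replicates 1 to 6 alone (1.03). The other 3 higher genes were Tnfrsf19, Axin2 and Rnf43, and in the matched pair 0 were higher and 4 lower.

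Wnt targets leaned upward over all libraries, with 10 of 24 higher, 4 lower and a median of 0.42. Apcdd1, a membrane inhibitor of Wnt, had 57.7, 73.1 and 154 CPM in clone2 and 4.18, 10.1 and 18.4 CPM in clone1, against 7.28, 7.44 and 11.8 CPM in Scrambled (3.18 ± 0.29, adjusted p = 2.95e-08; matched pair 2.56). Bambi, a decoy receptor of BMP signals, had 78.9, 137 and 156 CPM in clone2 and 19.2, 42.4 and 50.5 CPM in clone1 (1.79 ± 0.19; matched pair 1.24), and Nkd1, an inhibitor of Dishevelled, had 29.0, 34.9 and 44.0 CPM in clone2 and 9.62, 14.8 and 24.6 CPM in clone1 (1.28 ± 0.14; matched pair 1.03). Both Bambi and Apcdd1 are genes of chromosome 18, where many genes were higher in clone2. Dkk2 (1.3 ± 0.22) and Axin2 (0.46 ± 0.11) were higher, Axin2 not past the threshold in the matched pair (0.51), while Tspan8 was lower (-1.34 ± 0.14). In the matched pair 4 were higher and 4 lower, at a median of 0.044.

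For other signalling pathways, the counts in the more frequent direction were close to the shares of 23.6% higher and 25.5% lower over all genes tested. Of 21 BMP pathway genes 6 were higher and 3 lower, with the BMP target Id3 at 210.2, 286 and 399 CPM in clone2 and 119, 147 and 182 CPM in clone1 (1.03 ± 0.10; matched pair 0.61) and the ligand gene Bmp8b lower (-2.11 ± 0.22). Of 13 Notch genes 4 were lower and 0 higher, with the ligand Jag1 (-1.52 ± 0.28), the receptor Notch1 (-1.36 ± 0.32) and the target Hes1 (-1.01 ± 0.16) among them, and 0 passed in the matched pair. Of 18 EGFR genes 5 were lower and 2 higher. The ligands Areg (-2.14 ± 0.25) and Btc (-0.78 ± 0.12) and the receptors Erbb2 (-1.06 ± 0.19) and Erbb3 (-0.53 ± 0.093) were lower, and Dusp6, a phosphatase induced by ERK, was higher (0.77 ± 0.10). Erbb2 did not pass in the matched pair (-0.71).

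The revival list, genes of regenerating and fetal-like epithelium, had 11 of 27 lower and 6 higher, at a median of -0.21. Clu, Anxa1 and Ly6a, its best known members, did not pass. Clu had 0.801, 2.67 and 6.90 CPM in clone2 and 2.17, 3.35 and 5.28 CPM in clone1 (-0.13 ± 0.31, adjusted p = 0.757), below the 8.06, 9.78 and 10.8 CPM of Scrambled in every library of both clones. Anxa1 had 1567, 2463 and 3352 CPM in clone2 and 1808, 2211 and 2561 CPM in clone1 (0.13 ± 0.13, adjusted p = 0.437), but it passed as higher with replicates 1 to 6 alone (0.33) and as lower with replicates 7 to 9 alone (-0.34). Ly6a had 2608, 3315 and 4620.3 CPM in clone2 and 2558, 3177 and 3607 CPM in clone1 (0.21 ± 0.10, adjusted p = 0.0918), and passed as higher with replicates 1 to 6 alone (0.28). Tm4sf1, a tetraspanin-like surface protein, was the largest fall, with 7.33, 12.9 and 24.4 CPM in clone2 and 72.3, 106 and 149 CPM in clone1 (-2.81 ± 0.23; matched pair -3.01). Il1rn, the interleukin-1 receptor antagonist, had 44.1, 102 and 150.1 CPM in clone2 and 339, 398 and 482 CPM in clone1 (-2.04 ± 0.21; matched pair -1.39), and Spp1, which encodes osteopontin, was lower (-1.80 ± 0.15). The cathepsin Ctsh (1.02 ± 0.10) and the connexin Gja1 (1.38 ± 0.30) were higher.

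Yap1, the coactivator of the Hippo pathway, had 8.68, 17.8 and 29.0 CPM in clone2 and 11.5, 14.8 and 16.6 CPM in clone1 (0.32 ± 0.16, adjusted p = 0.0954), and it passed as higher in the matched pair at 0.68 and without clone2 replicate 8 (0.41). Among 19 targets of YAP, TAZ and TEAD, 8 fell and 2 rose, at a median of -0.54. Ccn2, a matricellular protein, had 0.902, 2.40 and 4.204 CPM in clone2 and 7.99, 12.2 and 19.0 CPM in clone1 (-2.23 ± 0.22; matched pair -2.37), and F3, tissue factor, had 3.42, 5.19 and 12.2 CPM in clone2 and 21.6, 30.2 and 42.2 CPM in clone1 (-2.21 ± 0.20; matched pair -3.07). Myof was lower (-1.36 ± 0.11), and Rbms3, an RNA-binding protein, was higher (1.52 ± 0.22). Scrambled had 12.5, 17.1 and 19.7 CPM of Ccn2 and 46.8, 48.9 and 51.8 CPM of F3, above every clone2 library for both.

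Proliferation genes were lower in clone2. Of 36 S phase genes 30 were lower and 1 higher, at a median of -0.83, and among 32 genes for G2 and mitosis the counts were 24 lower and 1 higher, at a median of -0.53. Mcm7, a subunit of the replicative helicase, had 28.6, 44.2 and 54.7 CPM in clone2 and 98.7, 109.6 and 169 CPM in clone1 (-1.54 ± 0.13, adjusted p = 1.36e-11; matched pair -1.21), without overlap. Aurka, a mitotic kinase, had 35.1, 44.9 and 52.3 CPM in clone2 and 68.7, 82.1 and 119 CPM in clone1 (-1.04 ± 0.11; matched pair -0.80), and Top2a, the topoisomerase of dividing cells, had 134, 157 and 253 CPM in clone2 and 273, 314 and 457 CPM in clone1 (-0.92 ± 0.11; matched pair -0.40). In the matched pair 7 S phase genes and 4 of G2 and mitosis were lower and 0 of either were higher, with medians of -0.50 and -0.34. Over all genes tested there, 882 of 11334 passed as lower. Rrm2, Mcm5 and Ccnb1, among others, did not pass in the matched pair. Of 23 p53 targets and cell cycle inhibitors 7 were higher and 5 lower, at a median of 0.037, so they did not move as a group. In the matched pair 3 were higher and 1 lower, and the median changed sign to -0.20. Cdkn1a, which encodes p21, had 279.8, 308 and 374 CPM in clone2 and 164, 199 and 241 CPM in clone1 (0.69 ± 0.084; matched pair 0.57), and Btg2, an antiproliferative gene, had 151, 179 and 202 CPM in clone2 and 69.8, 83.05 and 115 CPM in clone1 (0.98 ± 0.092; matched pair 0.87). Both were higher without overlap, and Scrambled had 144, 167 and 178 CPM of Cdkn1a and 59.4, 61.8 and 74.8 CPM of Btg2, below every clone2 library.

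Keratins and envelope genes known from skin and hair were detected in these organoids and moved in both directions. Of 12 hair-type keratins 9 were higher and 2 lower, at a median of 1.07. Krt33b had 57.2, 72.3 and 127 CPM in clone2 and 9.50, 26.4 and 30.2 CPM in clone1, against 4.79, 5.69 and 6.51 CPM in Scrambled (2.04 ± 0.25; matched pair 1.69), and Krt83 had 43.0, 65.2 and 156 CPM in clone2 and 20.7, 25.4 and 41.0 CPM in clone1 (1.71 ± 0.28; matched pair 1.18). Hair keratin paralogs are near-identical, so reads may be split among them. Of 6 basal and squamous keratins 2 were higher and 2 lower, at a median of -0.39, and Krt4, a keratin of stratified epithelium, was among the lower (-1.37 ± 0.10). Their summed level was 93.9 to 142 CPM in clone2 and 169 to 234 CPM in clone1, without overlap. The median of these keratins changed sign under several settings, among them both clones alone in the fit (0.48). Of 12 cornified envelope genes 6 were higher and 2 lower, at a median of 0.48, which was -0.31 with no filter on low counts. Of the hair-type keratins 4 were higher and 1 lower in the matched pair, and of the envelope genes 3 were higher and 1 lower. Dapl1 (ENSMUSG00000026989, chromosome 2, 59484653 to 59505020, mm10), a gene of early epithelial differentiation, had 1292, 2181.7 and 2436 CPM in clone2 and 112, 305 and 506 CPM in clone1, against 51.6, 60.9 and 64.4 CPM in Scrambled (2.71 ± 0.30, adjusted p = 5.36e-07; matched pair 2.13). The crosslinking enzyme gene Tgm1 was higher (0.97 ± 0.13; matched pair 0.88) and Sprr2h was lower (-1.58 ± 0.22). Sprr2a1, a near-identical member of its family, had 43.9, 1150.3 and 1634 CPM in clone2 and 13.7, 43.6 and 82.8 CPM in clone1 and differs between the kinds of library, and in the matched pair it stood at 0.81 (adjusted p = 0.299).

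**Figure D4:**
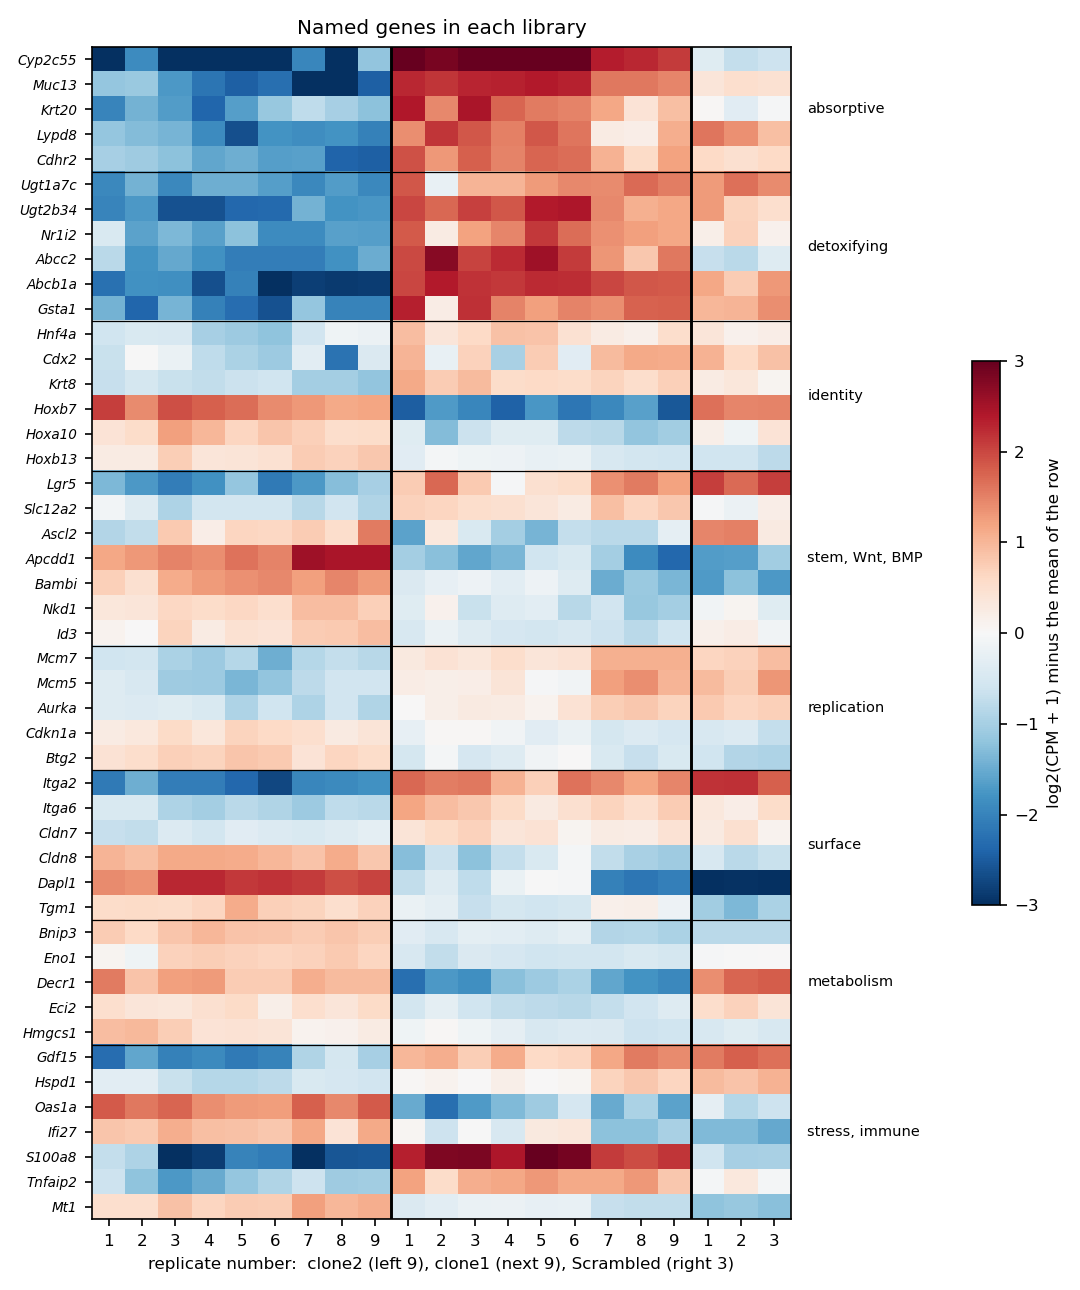
Each row is a gene and each column a library, clone2 at the left, clone1 in the middle and Scrambled at the right, coloured by log2(CPM + 1) minus the mean of the row. Absorptive and detoxifying genes are blue in all 9 clone2 libraries and red in nearly all clone1 libraries, and Hoxb7 and Decr1 are red in clone2 and Scrambled alike.

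Hypoxia and glycolysis genes were higher more often than lower, 16 against 6 of 32, with a median of 0.27. Bnip3, a mitophagy receptor induced by hypoxia, had 2117, 2469 and 2772 CPM in clone2 and 725, 1068 and 1146 CPM in clone1 (1.31 ± 0.085, adjusted p = 1.61e-15; matched pair 1.23), without overlap. Aldoa, an enzyme of glycolysis, had 5007, 5889.6 and 6462 CPM in clone2 and 3195, 3936 and 4298 CPM in clone1 (0.63 ± 0.069; matched pair 0.47), and Hif1a, the hypoxia factor itself, had 70.8, 78.1 and 89.7 CPM in clone2 and 35.4, 45.9 and 59.7 CPM in clone1 (0.78 ± 0.098; matched pair 0.87). Car9, the carbonic anhydrase induced by hypoxia, went the other way, with 0.431, 1.13 and 3.05 CPM in clone2 and 8.19, 13.9 and 19.2 CPM in clone1 (-3.35 ± 0.22, adjusted p = 1.9e-15; matched pair -2.94), and both clones lay far below the 119.8, 122 and 127 CPM of Scrambled. Hk2 was lower as well (-0.81 ± 0.12), though it did not pass in the matched pair at -0.25. Eno1 was higher (1.10 ± 0.090; matched pair 0.56) and differs between the kinds of library.

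Enzymes of fatty acid oxidation had 9 of 23 higher and 5 lower, at a median of 0.053. Decr1, the reductase needed for unsaturated fatty acids, had 10.8, 12.7 and 19.6 CPM in clone2 and 0.469, 1.12 and 2.66 CPM in clone1, against 17.51, 22.6 and 23.7 CPM in Scrambled (3.28 ± 0.23, adjusted p = 1.47e-14; matched pair 3.50). Ehhadh, the bifunctional enzyme of peroxisomes, chosen after its values were seen, had 0.954, 1.47 and 3.02 CPM in clone2 and 0, 0 and 0.771 CPM in clone1 (3.18 ± 0.60), at levels near the floor in clone1. Eci2, an enoyl-CoA isomerase, was higher (1.09 ± 0.099). In all 3, clone1 lay below both clone2 and Scrambled. Of 22 genes of fatty acid synthesis 6 were higher, among them the desaturase Scd1 (0.90 ± 0.093), and 5 lower, among them Lpin2 (-1.88 ± 0.16) and Acsl5 (-1.17 ± 0.10). Of 25 cholesterol genes 10 were higher and 5 lower. Hmgcs1, an early enzyme of the pathway, had 676, 829 and 1226 CPM in clone2 and 405, 472 and 634 CPM in clone1 (0.84 ± 0.11; matched pair 1.31), and was higher. Srebf2, the transcription factor of this pathway, was lower (-0.69 ± 0.085).

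Stress genes were lower more often than higher over all libraries. In the matched pair, where fewer genes passed in all, fewer of them passed as lower, and the medians of these lists stayed negative. Of 25 integrated stress response genes 13 were lower and 3 higher, at a median of -0.41. In the matched pair 3 were lower and 1 higher, at a median of -0.23. The summed level of this list went the other way. It was 4738, 5081 and 6401 CPM in clone2 and 3365, 3816 and 4279 CPM in clone1, higher in clone2 without overlap. Gdf15, a stress cytokine, had 2.49, 3.49 and 10.8 CPM in clone2 and 24.7, 34.7 and 48.5 CPM in clone1, against 48.4, 51.6 and 57.5 CPM in Scrambled (-2.72 ± 0.22, adjusted p = 1.96e-10; matched pair -3.18). The serine and asparagine enzymes Psat1 (-1.19 ± 0.17), Shmt2 (-1.02 ± 0.15) and Asns (-1.01 ± 0.17) were lower, and Psat1 and Asns did not pass in the matched pair (-0.72 and -0.61). Of 23 endoplasmic reticulum chaperones 9 were lower and 3 higher (3 and 2 in the matched pair), at a median of -0.31 (-0.32 in the matched pair). Hspa5 was lower (-0.54 ± 0.090; matched pair -0.31, not past the threshold) and Sec61b higher (0.83 ± 0.073). Of 24 heat shock genes 10 were lower and 3 higher (5 and 5 in the matched pair), at a median of -0.24 (-0.15 in the matched pair). Among the lower were the mitochondrial chaperone Hspd1 (-0.90 ± 0.11; matched pair -0.59, not past the threshold) and Hsph1 (-1.25 ± 0.20). Hspb8, a small heat shock protein of chaperone-assisted autophagy, was higher, with 10.1, 15.5 and 22.6 CPM in clone2 and 0, 0.258 and 1.12 CPM in clone1 (5.46 ± 0.34, adjusted p = 4.68e-16; matched pair 4.95).

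Interferon genes were higher more often than lower. Of 18 tested, 11 were higher and 0 lower, at a median of 0.76, and in the matched pair 6 were higher and 1 lower, at a median of 0.57. Oas1a, which senses double-stranded RNA, had 23.2, 29.3 and 35.7 CPM in clone2 and 1.12, 2.58 and 6.13 CPM in clone1, against 4.65, 5.58 and 7.504 CPM in Scrambled (3.19 ± 0.19, adjusted p = 7.59e-17; matched pair 3.35). Usp18, the feedback inhibitor of the interferon receptor, had 9.48, 14.5 and 33.6 CPM in clone2 and 1.78, 5.86 and 8.95 CPM in clone1 (1.96 ± 0.30; matched pair 1.79), and Ifi27 had 64.5, 90.6 and 110.0 CPM in clone2 and 20.1, 34.4 and 61.3 CPM in clone1 (1.24 ± 0.20; matched pair 1.18). The antigen presentation genes B2m (0.81 ± 0.14) and H2-D1 (0.71 ± 0.089), the second chosen after its values were seen, were higher, and for both clone2 overlapped Scrambled. NF-kappaB genes leaned downward, with 8 of 17 lower and 2 higher, a median of -0.63 and Tnfaip2 at 4.96, 8.49 and 11.9 CPM in clone2 and 28.0, 42.6 and 47.4 CPM in clone1 (-2.29 ± 0.14; matched pair -2.08).

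Among S100 genes 4 of 14 were lower and 3 higher. S100a8, a subunit of calprotectin, had 2.03, 3.85 and 16.3 CPM in clone2 and 109, 151 and 226 CPM in clone1, against 13.3, 13.6 and 17.7 CPM in Scrambled (-4.73 ± 0.33, adjusted p = 8.06e-10). It differs between the kinds of library, at 13.9 and 16.3 CPM in clone2 replicates 1 and 2 and 2.03 to 6.10 CPM in replicates 3 to 9, and the matched pair gave -3.40. Its partner S100a9, chosen after its values were seen, was lower too (-4.92 ± 0.64), at levels near the floor. It had 0 counts in 7 of the 9 clone2 libraries and at most 2 in any, against 1 to 32 counts in clone1. The matched pair value of -6.65 rests on 0 counts in both clone2 libraries and gives a direction, not a size. S100a1 was higher (0.84 ± 0.11). The metallothioneins, which bind zinc and copper, were higher together. Mt1 had 5849, 7039.9 and 9696 CPM in clone2 and 2474, 3342 and 3635 CPM in clone1 (1.24 ± 0.097; matched pair 0.94), and Mt4, known from stratified epithelium, had 4272, 4980.1 and 5368 CPM in clone2 and 1703, 2062 and 2531 CPM in clone1 (1.27 ± 0.078; matched pair 1.14). Mt2 (1.39 ± 0.12) and Mt3 (1.51 ± 0.23) were higher too, none of the 4 overlapped between the clones, and Scrambled had the lowest median for all 4.

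Some of the largest single changes stood on no list. Cd63 (ENSMUSG00000025351, chromosome 10, 128900989 to 128912822, mm10), the tetraspanin of late endosomes and exosomes, had 38.4, 45.3 and 69.3 CPM in clone2 and 607, 675 and 765 CPM in clone1, against 337, 357 and 367 CPM in Scrambled (-3.76 ± 0.11, adjusted p = 1.09e-25; matched pair -3.33). Lgals4, a galectin of gut epithelium, had 676, 795 and 1401 CPM in clone2 and 2776, 2847 and 3123 CPM in clone1 (-1.63 ± 0.12; matched pair -1.14). Both were lower in clone2 in every library. Tm4sf20, a tetraspanin-like membrane protein, had 4.39, 7.55 and 16.7 CPM in clone2 and 206, 311 and 382 CPM in clone1 (-5.05 ± 0.24), and Ddah1, which degrades methylated arginine, had 0.481, 1.34 and 1.84 CPM in clone2 and 27.9, 33.7 and 41.7 CPM in clone1 (-4.78 ± 0.18). The uroplakin Upk1b (-4.64 ± 0.18), the NAD hydrolase Cd38 (-4.33 ± 0.21), the proton channel Otop1 (-5.07 ± 0.28), the myosin Myo15b (-4.54 ± 0.26) and the transporter Slc17a4 (-4.25 ± 0.31) were lower. Scrambled overlapped clone1 for Ddah1 and Cd38, with 23.5, 28.2 and 29.9 CPM and 24.8, 32.9 and 33.2 CPM, and lay between the clones for Tm4sf20, with 161, 168 and 175 CPM.

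Among the largest rises, Fundc2, an outer mitochondrial membrane protein, had 98.7, 117 and 149 CPM in clone2 and 6.71, 9.72 and 13.9 CPM in clone1, against 92.3, 97.5 and 117 CPM in Scrambled (3.59 ± 0.12, adjusted p = 1.86e-24; matched pair 3.82). Here clone1 was the line that stood apart. Tmem159, a lipid droplet assembly factor, had 44.9, 64.5 and 78.5 CPM in clone2 and 2.17, 3.36 and 5.39 CPM in clone1 (4.11 ± 0.15; matched pair 3.77), and AU021092, an uncharacterised gene, had 46.5, 63.9 and 75.3 CPM in clone2 and 0.819, 2.67 and 5.41 CPM in clone1 (4.28 ± 0.18; matched pair 4.16). For both, clone2 lay above and clone1 below Scrambled. Higher too were the peptidase Cpq (4.44 ± 0.28), the GMP reductase Gmpr (4.18 ± 0.52), the zinc finger gene Cxxc5 (4.05 ± 0.28), the growth factors Ptn (3.61 ± 0.57) and Pdgfd (3.38 ± 0.29), the matrix protein Mgp (3.21 ± 0.45), Pex5l (5.75 ± 0.58) and Samt1b (4.67 ± 0.25). Ptn and Mgp were smaller in the matched pair, at 1.57 and 1.85.

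Among abundant transcripts, the ribosomal protein gene Rps14 had 13953, 16128 and 18808 CPM in clone2 and 8566, 9602 and 10868 CPM in clone1 (0.73 ± 0.068, adjusted p = 2.49e-11; matched pair 0.86), and Rpl17 had 3085, 5983 and 7172 CPM in clone2 and 1870.5, 2109 and 2301 CPM in clone1 (1.41 ± 0.13; matched pair 0.68). Both lie on chromosome 18, and Rpl17 differs between the kinds of library. Ftl1, the light chain of ferritin, had 4190.0, 8939 and 9448 CPM in clone2 and 2634, 3323 and 4345 CPM in clone1 (1.22 ± 0.16), and in the matched pair it stood at 0.38. Among the 13 mRNAs encoded by mitochondrial DNA, 5 were higher and 2 lower, at a median of 0.25 that turned to -0.032 in the matched pair, where mt-Co1 stood at 0.54 against 1.05 ± 0.13 over all libraries. Actb was lower (-0.60 ± 0.15), though not past the threshold with replicates 1 to 6 alone (-0.58) or in the matched pair (-0.62).

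Genes of some chromosomes moved together. On chromosome 18, 151 of 291 genes tested were higher in clone2 and 28 lower, or 51.9% and 9.62%, against 23.6% and 25.5% over all genes, with a median log2 fold change of 0.36. Relative to the mean of both clones, the median gene of chromosome 18 stood at 0.16 to 0.29 in clone2 libraries, -0.26 to -0.16 in clone1 libraries and -0.27 to -0.22 in Scrambled libraries. All 9 clone2 libraries lay above the other 12. On chromosome 4, 255 of 714 genes were higher and 85 lower, at a median of 0.23, and on chromosome 9, 228 of 656 were higher and 97 lower, at a median of 0.18. There clone1 was the line that stood apart. The chromosome 4 medians were 0.13 to 0.17 in clone2, -0.30 to -0.063 in clone1 and 0.17 to 0.19 in Scrambled, and those of chromosome 9 were 0.10 to 0.17, -0.18 to 0.0072 and 0.17 to 0.20.

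The shifts were spread along these chromosomes. With each chromosome cut into 8 blocks of equal gene number, a description added after the medians were seen, all 8 blocks of chromosome 18 had a median above 0, from 0.20 to 0.62, and all 8 lay above Scrambled in clone2, by 0.32 to 0.59. All 8 blocks of chromosome 4 had a median above 0, from 0.091 to 0.43, and clone1 lay below Scrambled in all 8, by 0.25 to 0.32. On chromosome 9, 7 of 8 blocks had a median above 0, up to 0.36, and 1 stood at -0.037, where clone2 stood at -0.24 and clone1 at -0.23 relative to Scrambled. Clone1 lay below Scrambled in all 8 blocks of chromosome 9, by 0.18 to 0.33, and clone2 lay above it in 1. Chromosome 1 was shifted over a part, with 210 of 668 genes higher and 143 lower. Its medians were 0.033 to 0.11 in clone2, -0.088 to -0.0033 in clone1 and 0.13 to 0.16 in Scrambled. Clone1 lay below Scrambled in 6 of its 8 blocks, at -0.31 to -0.20, and stood at 0.00089 and 0.082 in blocks 6 and 7. On chromosome 15 the clone2 libraries split, with medians of 0.17 to 0.21 in replicates 7 to 9 and -0.064 to -0.013 in replicates 1 to 6, against -0.094 to 0.032 in clone1. Chromosome 7 did likewise, at 0.12 to 0.15 in clone2 replicates 7 to 9 and -0.061 to 0.024 in replicates 1 to 6, against -0.064 to 0.076 in clone1. The matched pair gave medians for chromosomes 18, 4 and 9 of 0.44, 0.25 and 0.20. No DNA was measured, so chromosome number was not tested.

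**Figure D5:**
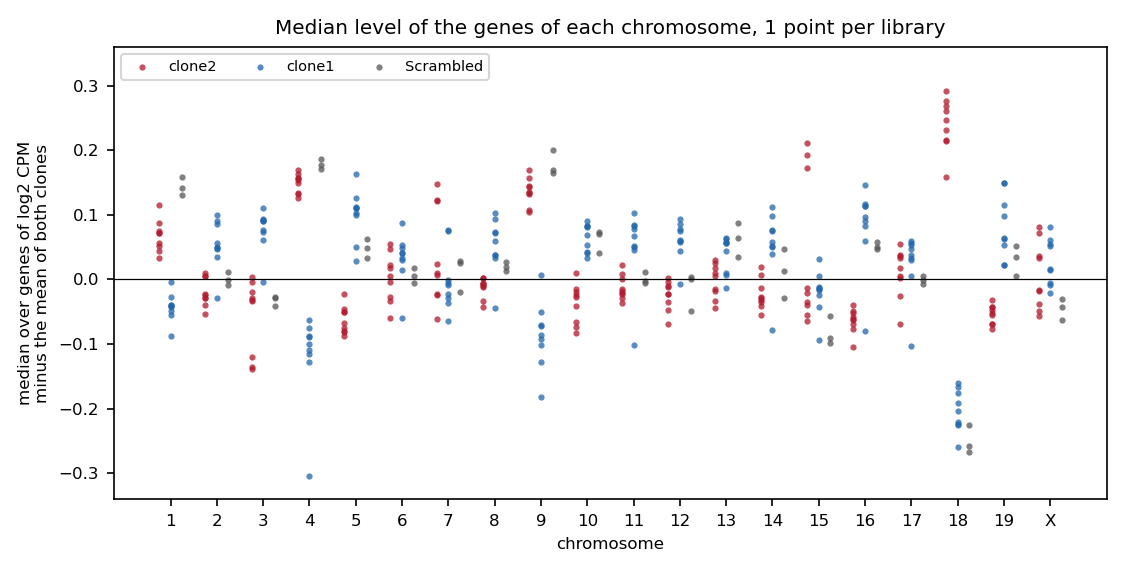
Each point is the median over the genes of a chromosome in 1 library, as log2 CPM minus the mean of both clones, for clone2, clone1 and Scrambled from left to right within each chromosome. Clone2 is above clone1 and Scrambled on chromosome 18, clone1 is below clone2 and Scrambled on chromosomes 1, 4 and 9, and 3 clone2 libraries stand above the rest on chromosome 15.

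Some changes came in runs of neighbouring genes. At least 4 neighbouring tested genes that all passed in 1 direction with a log2 fold change of at least 1 made up 17 runs with 75 genes, 9 higher and 8 lower. In the metallothionein run on chromosome 8 (94137197 to 94184969, mm10), Mt4, Mt3, Mt2 and Mt1 and the predicted gene Gm39228 were higher. A run on chromosome 15 (74714839 to 74753046) held Psca, Slurp1, Lypd2 and Lynx1, small surface or secreted proteins of the Ly6 family, with Slurp1 at 5.39, 10.1 and 16.3 CPM in clone2 and 0, 2.78 and 4.75 CPM in clone1 (1.87 ± 0.25). A run on chromosome 11 (99514114 to 99581016) held Krt39 and 4 keratin-associated protein genes, and Krt39 had 4.97, 11.1 and 22.4 CPM in clone2 and 1.54, 2.81 and 5.41 CPM in clone1 (1.93 ± 0.29). Slurp1 and Krt39 stood at 1.72 and 0.74 in the matched pair, the second not past the threshold. Of the 75 genes in runs, 70 could be tested in the matched pair, which shares its libraries with the comparison that chose the runs, and 42 passed there with the same sign. In the Psca run and in the run that holds Tmtc2, 1 of 4 passed, and in the Krt39, Pramel and Eif1ad runs 2 of 5.

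Of the 8 runs that were lower, 5 held mostly members of 1 gene family and 3 did not. The Gsta run on chromosome 9 (78182774 to 78443237) held Gsta4, Gsta1, Gm3776 and Cgas. A run on chromosome 15 (82402846 to 82794294) held the cytochromes Cyp2d10, Cyp2d12, Cyp2d34 and Cyp2d26, with Cyp2d34 at 0, 0 and 0.641 CPM in clone2 and 0.792, 5.86 and 11.9 CPM in clone1 (-5.00 ± 0.60; matched pair -5.04). The 3 others held Cwh43, Dcun1d4, Lrrc66 and Sgcb on chromosome 5 (73406075 to 73647790), Tmtc2 and 3 predicted genes on chromosome 10 (104142987 to 105574451), and Arhgap31, B4galt4, Upk1b and Igsf11 on chromosome 16 (38598340 to 39027159). Among these B4galt4, a galactosyltransferase, had 2.76, 6.20 and 9.61 CPM in clone2 and 17.0, 23.2 and 39.1 CPM in clone1 (-2.02 ± 0.18; matched pair -2.36). The remaining families are known from the 2-cell mouse embryo and from rare cells of embryonic stem cell cultures. They were the Zscan4 run on chromosome 7 (10794242 to 11614112), the Pramel run on chromosome 5 (94066151 to 94626848) and the Eif1ad run on chromosome 12 (87514316 to 88324026).

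The Zscan4, Pramel, numbered Eif1ad, Usp17l and Tcstv genes, put together only once their values were known, had 82 entries, of which 22 were tested, 19 lower and 0 higher. Over all genes tested 25.5% were lower. The Zscan4, Pramel and Eif1ad families were taken from runs that held only lower genes, so these counts largely repeat that choice and do not test it. Their summed level was 29.4, 35.1 and 43.4 CPM in clone2, 77.5, 126 and 150.3 CPM in clone1 and 55.1, 59.6 and 64.0 CPM in Scrambled. No clone2 library reached the lowest clone1 library, and Scrambled lay between the clones without overlap. The 9 Zscan4 entries summed to 8.39, 11.9 and 13.3 CPM in clone2, 21.6, 49.2 and 57.5 CPM in clone1 and 13.6, 14.8 and 18.6 CPM in Scrambled. Zscan4d, a DNA-binding member, had 0, 0.902 and 2.40 CPM in clone2 and 2.32, 4.45 and 10.7 CPM in clone1 (-2.42 ± 0.40, adjusted p = 4.59e-06; matched pair -2.08), and Pramel44 had 0.400, 0.863 and 1.47 CPM in clone2 and 0.833, 5.54 and 8.29 CPM in clone1 (-2.45 ± 0.38; matched pair -2.70). Members of these families are near-identical, so the split of reads among them is uncertain. Lncenc1, a noncoding RNA of embryonic stem cells, was lower as well, with 0.160, 1.65 and 7.18 CPM in clone2 and 31.3, 40.1 and 51.3 CPM in clone1 (-4.40 ± 0.29, adjusted p = 1.25e-11; matched pair -3.08).

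The defining markers chosen for fibroblasts and immune cells were near 0 in both clones. Of 8 defining fibroblast genes 0 passed the filter, and their sum reached at most 0.855 CPM in clone2, 0.234 CPM in clone1 and 0.155 CPM in Scrambled, with Col1a2, Col3a1, Pdgfra and Pdgfrb at 0 in both clones. Of 7 defining immune genes 0 passed, with a highest sum of 1.66 CPM in clone2, 0.833 CPM in clone1 and 1.14 CPM in Scrambled, and Cd3e and Adgre1 were among those at 0 in both clones. A wider list of 11 immune genes, which adds genes that are not specific to immune cells, summed to 1258, 1700 and 2635 CPM in clone2 and 1346, 2038 and 2464 CPM in clone1. Most of that sum was Ly6g, known as a neutrophil surface protein, with means of 1902 CPM in clone2 and 1863 CPM in clone1, and of its 3 members tested, Ly6g, Cd68 and Cx3cr1, 0 passed in either direction by edgeR's adjusted p. Of 6 endothelial genes Cdh5, Kdr and Emcn were at 0 in both clones, their sum was 1.92, 3.53 and 6.32 CPM in clone2 and 0, 1.84 and 3.08 CPM in clone1, and Vwf was the only one tested, with 0.642, 2.83 and 5.64 CPM in clone2 and 0, 0.410 and 1.35 CPM in clone1 (2.23 ± 0.47). Of 5 markers of squamous epithelium Krt5 was at 0 in both clones, and the sum was 7.55, 10.8 and 17.3 CPM in clone2 and 8.67, 10.5 and 17.9 CPM in clone1. The part of these markers in the results was not tested. The 8 defining genes of colon epithelium, among them Epcam, Cdh1, Krt8, Krt18, Krt19, Vil1 and Cdx2, were all tested and summed to 1819, 2074 and 2479 CPM in clone2, 2568, 2880.0 and 3372 CPM in clone1 and 2189, 2357 and 2498 CPM in Scrambled. The label of epithelial colon cells thus had its markers in both clones, at a lower summed level in every clone2 library than in any clone1 library.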

How the data were processed

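Poly(A) RNA of organoids was sequenced from directional libraries, per the labels' protocols. The authors deposited 1 table of estimated counts (expected counts) per gene, stored as whole numbers, and the submitters' processing notes name Salmon 1.3.0 and mm10. How transcripts were summed to genes was not given in the sources used here. The table holds 54354 entries, of which 1243 have no gene name. These were kept under their gene ID and made up 0.0191% to 0.0475% of the total counts of a library. From these counts the clones were compared in R 4.3.3 with edgeR 4.0.16, with TMM scaling, filterByExpr and a robust quasi-likelihood fit of the 21 libraries of clone2, clone1 and Scrambled, tested on simulated data. Gene positions are those of GENCODE annotation of mm10, and 51528 IDs had one.

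The members and lists were chosen with earlier results of these data known. Named genes were Degs1, Yap1, Lgr5, Clu, Anxa1, Ly6a and Car9, the 15 strongest rises and falls among genes that averaged 3 or more in log2 CPM, the 10 greatest rises and falls in CPM, at most 8 members per list among those averaging 1 or more, and members of neighbour runs. Genes outside this rule are said to be chosen after their values were seen.

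Alternatives were other scaling, no filter, DESeq2 1.42.0, limma 3.58.1 with and without a block, a threshold of 0.01, other sets of libraries, the replicate block and leaving out each library. The comparisons with clone2 replicates 1 and 2 alone and with 3 to 9 alone were added after the data were seen.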

Additional observations from a re-analysis of the deposited data

Results flagged for a closer look

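Of 62 groups of 9 values examined for a library far from the other 8, 5 had one, and chance flags about 1 in 20 groups. Abcc2 in clone2 replicate 1 had 1.38 CPM, against 0 to 0.481 CPM in the other clone2 libraries. Ascl2 in clone2 replicate 9 had 259 CPM, against 46.7 to 149.6 CPM in the others. Ehhadh in clone1 replicate 3 had 0.771 CPM, against 0 to 0.258 CPM in the others. Clone1 replicate 2 was flagged in 2 measures, with 883253 total counts and a chromosome 4 median of -0.30, against -0.13 to -0.063 in the other clone1 libraries. Without clone1 replicate 2, 5712 genes passed between the clones.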

How the results depend on the processing

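The 5649 calls became 5715 with DESeq2, 5545 with its size factors, 5487 with limma, 6684 with no filter, 4980 with both clones alone in the fit, 5340 with all 34 libraries, 4268 at a threshold of 0.01, 4312 with replicates 1 to 6 alone, 4748 with replicates 7 to 9 alone and 5725 with clone2 replicates 3 to 9 alone. With clone2 replicates 1 and 2 alone 2129 genes passed, 1247 higher and 882 lower, in a fit with fewer libraries. With limma and runs of library numbers as a random block (correlation 0.204) 3814 passed, 1825 of them lower. Leaving out each library gave 5327 to 5712 calls, 2600.0 to 2777 higher and 2643 to 2955 lower. The replicate numbers did not pair the samples: deviations of same-numbered libraries correlated at -0.030 to 0.056, and 2 of 9 correlated best with their own number. The replicate block gave 4937 calls. Of 194 named genes past the threshold, 164 kept their sign and stayed past it under every setting that gave a value, and 29 were lost with clone2 replicates 1 and 2 alone. The median of basal and squamous keratins (-0.39) changed sign with both clones alone (0.48), no filter (0.45), the replicate block (0.48), replicates 1 to 6 (0.26), replicates 7 to 9 (0.40) and without clone1 replicate 2 or 8 (0.43 each), and leaving out each library gave -0.50 to 0.43. Clu (-0.13) stood at 0.51 with clone2 replicates 1 and 2 alone, 0.32 with replicates 7 to 9 and, leaving out each library, at -0.36 to 0.0017. With clone2 replicates 1 and 2 alone Ascl2 stood at -0.079 and the median of mitochondrial mRNAs at -0.032. With no filter the cornified envelope median was -0.31. With replicates 7 to 9 alone Anxa1 stood at -0.34, the epithelial identity median at 0.015 and that of NRF2 and glutathione genes at 0.16. The causes were not tested. Runs of at least 3 neighbours numbered 45, and runs of 4 at any fold 131. Depth limits low genes: 3 counts over clone2 are 0.0615 CPM and over clone1 0.0857 CPM, for counting error only.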
